A study of Mus musculus with 14 samples.

Results

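Fc receptors and monocyte genes were followed in the lungs of mice that carried a mammary tumour elsewhere in the body. The genes were 4 receptors for the constant (Fc) part of IgG (Fcgr1, Fcgr2b, Fcgr3 and Fcgr4), their signalling chain Fcer1g, 3 receptors of monocytes (Ccr2, Cx3cr1 and Csf1r) and the lysozyme gene Lyz2. They were found by gene symbol in the platform annotation, which gave 20 of the 45101 probe sets and 9 of the 18194 genes with a probe set of their own. All 9 passed the filter on level that left 10916 genes for testing. The tested lungs came from BALB/c mice that had been injected in the fourth mammary fat pad with 4T1 cells, a mouse breast carcinoma line that metastasises (4 arrays), or with 67NR cells, a mouse breast carcinoma line that does not (5 arrays). The normal lungs came from BALB/c mice that received PBS and no cells (5 arrays). Lungs of mice with a tumour were taken at 6 days or at a tumour volume near 50 mm3, and no collection day is recorded here for the normal lungs. Lungs had been perfused with PBS to clear blood from their vessels. Each kind of tumour is a single cell line, and the labels used here give no age or sex. Nor do they say that each array is a separate mouse, so p-values reflect only how these arrays vary.

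Array medians lay between 113.2 and 116.1 intensity units, and the 2 most alike arrays still differed by a root mean square of 0.17 on the log2 scale. Surfactant transcripts, which mark lung, were bright in every group, and Sftpc averaged 7694 in 4T1, 7952 in 67NR and 8158 in normal lungs. The number of arrays limits the precision of every value below.

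Fc gamma receptors let leukocytes respond to antibody-coated particles. Fcgr1, Fcgr3 and Fcgr4 are activating, and they need the common gamma chain encoded by Fcer1g, whose ITAM (an activation motif with tyrosines) is phosphorylated by Src family kinases and then binds the kinase Syk. Fcgr2b carries an inhibitory motif instead, is the Fc receptor of B cells, and is also found on macrophages and on endothelial cells. Monocytes that leave the bone marrow with high Ccr2 are called classical, and those that patrol vessel walls with high Cx3cr1 are called non-classical. Signals through Csf1r sustain monocytes and most macrophages. In whole lung RNA, fewer cells of a type and less RNA per cell cannot be told apart.

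Fcgr2b, Fcgr4 and Fcgr3 are consecutive protein-coding genes on chromosome 1 in the RefSeq order, and 7 protein-coding genes lie between Fcgr3 and Fcer1g. Fcgr1 lies on chromosome 3, Ccr2 and Cx3cr1 on chromosome 9 and Lyz2 on chromosome 10. The promoters of the 3 genes whose 4T1 arrays all lay above the normal arrays are shown because these genes share a chromosome region and a direction. Each sequence is from RefSeq on GRCm38.p6, covers 250 bases before to 50 bases after the annotated start, and is read along the gene's own strand. Capitals mark matches to GAGGAA, the core bound by the myeloid factor PU.1, to TTCNNNGAA, a gamma-activated site, or to a pair of GAAA with any 2 bases between them, an interferon-stimulated response element, on either strand. Fcgr4 is at chr1:171018676-171018975 on the plus strand, Fcgr3 at chr1:171059354-171059653 on the minus strand, and Fcer1g at chr1:171234300-171234599 on the minus strand.
Fcgr4: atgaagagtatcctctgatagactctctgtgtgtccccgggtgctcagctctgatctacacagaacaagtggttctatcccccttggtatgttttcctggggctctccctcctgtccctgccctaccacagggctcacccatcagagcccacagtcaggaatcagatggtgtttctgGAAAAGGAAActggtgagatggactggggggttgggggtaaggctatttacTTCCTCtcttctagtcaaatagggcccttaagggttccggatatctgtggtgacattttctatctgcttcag
Fcgr3: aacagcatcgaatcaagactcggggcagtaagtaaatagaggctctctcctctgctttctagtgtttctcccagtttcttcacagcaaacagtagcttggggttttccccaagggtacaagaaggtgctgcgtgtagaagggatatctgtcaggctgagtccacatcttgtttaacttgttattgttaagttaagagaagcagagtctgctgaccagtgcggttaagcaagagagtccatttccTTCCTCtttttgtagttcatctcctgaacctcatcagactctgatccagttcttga
Fcer1g: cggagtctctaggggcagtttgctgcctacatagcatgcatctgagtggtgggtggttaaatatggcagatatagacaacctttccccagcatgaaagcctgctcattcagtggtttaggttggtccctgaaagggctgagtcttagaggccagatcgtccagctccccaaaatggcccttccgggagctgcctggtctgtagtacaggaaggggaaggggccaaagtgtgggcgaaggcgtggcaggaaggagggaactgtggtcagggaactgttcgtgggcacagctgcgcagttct
The Fcgr4 window held the reverse of GAGGAA starting 22 bases before the start, and the GAAA pair starting 73 bases before it. The Fcgr3 window held the reverse of GAGGAA starting 6 bases before the start, and a second, overlapping Fcgr3 window held the same match. None of the 3 motifs was found in the window of Fcer1g or in that of Fcgr2b. Over 32851 promoters of this length, 28.3% held GAGGAA, 8.3% held TTCNNNGAA and 3.44% held the GAAA pair, so a PU.1 core is common and a match is only a description.

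The first comparison asked how the lung differed in mice with a 4T1 tumour from the normal lung. The activating receptors Fcgr4 and Fcgr3 and the chain Fcer1g were brighter on each 4T1 array than on every normal array, by 1.33-fold, 1.27-fold and 1.55-fold, and Fcgr4 alone passed the test, at an adjusted p close to the threshold. The high-affinity receptor Fcgr1 and Lyz2 differed by little between the group means. The inhibitory receptor Fcgr2b did not pass, and its difference depended on the probe set, at 0.02 for the brightest and 0.2 to 0.287 for the next 3. No monocyte receptor passed. Levels are linear probe set intensities and changes are differences of log2(intensity + 16), tested with limma over all genes.

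Fcgr4 encodes a receptor of neutrophils, monocytes and macrophages for the mouse antibody classes IgG2a and IgG2b. Its intensity was 515, 417, 569 and 490 on the 4 4T1 arrays, against 385, 390, 379, 345 and 345 on the 5 normal arrays. The dimmest 4T1 array was above the brightest normal array, and the means were 498 ± 62.9 (SD, n = 4) and 369 ± 22.1 (SD, n = 5). Fcgr4 rose by 0.41 on the log2 scale (SE 0.082, 95% interval 0.234 to 0.586, limma adjusted p = 0.0475). The call held in 10 of 26 alternatives, among them 2 of the 14 fits that left out 1 array, and those 14 gave changes of 0.345 to 0.489. Over all probe sets instead of genes its adjusted p was 0.158.

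Fcgr3 encodes a low-affinity receptor of myeloid and natural killer cells. Its intensity was 739, 679, 700 and 810 on the 4T1 arrays, against 601, 501, 586, 594 and 581 on the normal arrays, and again the groups did not overlap. The means were 732 ± 57.7 in 4T1 lungs (SD, n = 4) and 573 ± 40.8 in normal lungs (SD, n = 5). The difference of 0.345 (SE 0.074, interval 0.187 to 0.504) did not pass (limma adjusted p = 0.0752).

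Fcer1g, which activating Fc receptors need at the cell surface, had the largest difference of the 9 genes. Its intensity was 1107, 773, 1346 and 1129 on the 4T1 arrays, against 747, 693, 673, 618 and 700 on the normal arrays. All 4 4T1 arrays were above all normal arrays, but the second lay close to them. The means were 1089 ± 237 (SD, n = 4) and 686 ± 46.6 (SD, n = 5), and the difference of 0.629 (SE 0.16, interval 0.287 to 0.972) did not pass (limma adjusted p = 0.182).

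**Figure D1:**
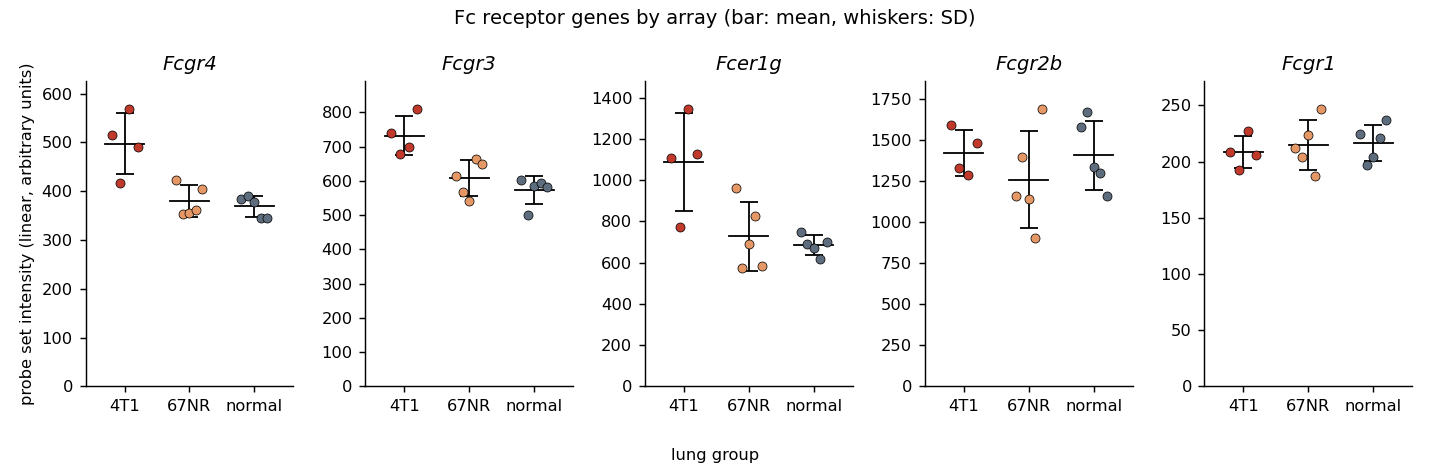
Probe set intensity (linear axis from 0) of the Fc receptor genes by lung group, with 1 point per array and a bar at each group mean with its SD (4 4T1, 5 67NR and 5 normal arrays). Fcgr4, Fcgr3 and Fcer1g were higher on all 4T1 arrays than on all normal arrays, while the 4T1 and normal points of Fcgr1 and of the brightest Fcgr2b probe set overlap.

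Fcgr1 encodes the high-affinity IgG receptor of monocytes and macrophages. Its intensity was 209, 193, 227 and 206 on the 4T1 arrays, against 225, 197, 204, 221 and 237 on the normal arrays. The groups overlapped and the difference was -0.05 (interval -0.21 to 0.109, limma adjusted p = 0.975). A second Fcgr1 probe set differed by 0.06.

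Fcgr2b was read by 5 probe sets, and the brightest did not follow the others. The brightest read 1595, 1332, 1287 and 1481 on the 4T1 arrays, against 1578, 1670, 1338, 1298 and 1160 on the normal arrays, a difference of 0.02 (interval -0.301 to 0.346, limma adjusted p = 0.999). A further 3 probe sets, at 250 to 617 intensity units over all 14 arrays, differed by 0.2 to 0.287, with adjusted p-values over all probe sets of 0.844 to 0.963. The fifth was dim on every array, at 2.11 to 4.9. Across the 14 arrays the brightest probe set correlated with the other 4 at Pearson r between -0.273 and 0.2, while the 3 of middling level correlated with one another at 0.355 to 0.679. The difference seen for this gene therefore depends on which probe set is read. The names of 2 of them end in _s_at or _x_at, by which the manufacturer marks probes that may match transcripts of other genes, and Fcgr2b and Fcgr3 are very alike in the part that binds IgG.

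Ccr2, the receptor that draws classical monocytes towards the chemokine Ccl2, varied more between arrays of a group than between groups. Its brightest probe set read 752, 413, 1217 and 590 on the 4T1 arrays, against 735, 421, 306, 679 and 696 on the normal arrays. The 4T1 arrays held both a low and the highest value, and the difference was 0.345 (interval -0.284 to 0.975, limma adjusted p = 0.954). Its other 3 probe sets differed by 0.04 to 0.236, and the 4 probe sets correlated with one another at r from 0.479 to 0.872 over the 14 arrays.

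Cx3cr1, the receptor for fractalkine (Cx3cl1), read 178, 182, 242 and 163 on the 4T1 arrays, against 279, 149, 153, 273 and 257 on the normal arrays. The normal arrays fell into 3 high and 2 low values, and the difference was -0.17 (interval -0.575 to 0.24, limma adjusted p = 0.966). The second Cx3cr1 probe set differed by -0.2 and followed the first at r = 0.846.

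Csf1r, the receptor for Csf1 and Il34, read 3397, 3427, 3775 and 3604 on the 4T1 arrays, against 3310, 3091, 3069, 3344 and 3497 on the normal arrays. A pair of 4T1 arrays was above all normal arrays, and the difference of 0.122 (interval 0.00162 to 0.242) did not pass (limma adjusted p = 0.751). The other 2 Csf1r probe sets differed by 0.01 and 0.06.

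Lyz2, which encodes the lysozyme of macrophages, neutrophils and alveolar type 2 cells, read 11280, 10744, 9867 and 11394 on the 4T1 arrays, against 12557, 11985, 11966, 10982 and 10594 on the normal arrays. The ranges overlapped, and the difference was -0.1 (interval -0.241 to 0.0372, limma adjusted p = 0.896).

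Of the 9 genes 1 was called higher and 0 lower in 4T1 lungs against normal lungs, where 0.412% of the 10916 genes were called higher and 0% lower. An unadjusted p under 0.05 was reached by 4 of the 9, against 6.56% of all genes. The 4T1 arrays lay above all normal arrays for 3 of the 9, against 1.4% of all genes. The median change of the 9 was 0.122, and that of all genes tested was -0.00077. None of the 20 probe sets was called over all probe sets with limma, where 0.149% were called higher and 0.0111% lower, and 5 of the 20 had an unadjusted p under 0.05, against 5.43% of all probe sets. These 5 were the probe sets of Fcgr3, Fcgr4 and Fcer1g and those of Fcgr2b whose names end in _s_at or _x_at. Probe sets of the same gene do not count as separate genes.

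**Figure D2:**
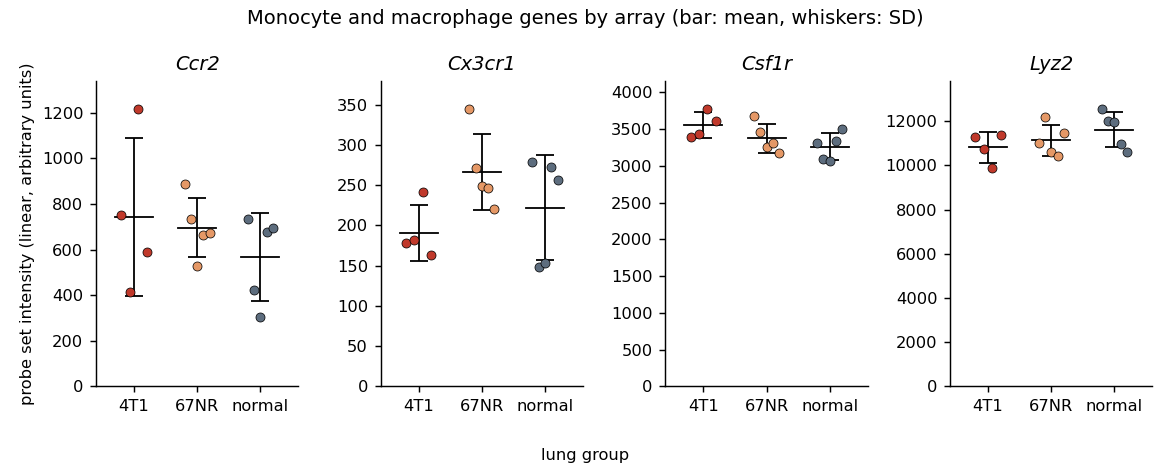
Probe set intensity (linear axis from 0) of the monocyte receptor genes and Lyz2 by lung group, with 1 point per array and a bar at each group mean with its SD (4 4T1, 5 67NR and 5 normal arrays). The groups overlap for all 4 genes, and the Ccr2 points of the 4T1 group run from 413 to 1217.

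The second comparison asked whether a non-metastatic tumour went with the same differences. In 67NR lungs against normal lungs no gene of the 9 passed, and the Fc receptor genes lay close to their normal levels. Fcgr4 read 424, 353, 355, 362 and 405 on the 67NR arrays, with a mean of 380 ± 32.5 (SD, n = 5), and differed from normal by 0.04 (interval -0.128 to 0.204, limma adjusted p = 0.916). Fcgr3 read 613, 566, 542, 665 and 650 and differed by 0.08 (interval -0.0687 to 0.23, limma adjusted p = 0.777). Fcer1g read 963, 574, 690, 828 and 582, a wider range than on the normal arrays at both ends, and differed by 0.06 (interval -0.266 to 0.38, limma adjusted p = 0.935).

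Fcgr2b read 1162, 1397, 1142, 907 and 1691 on the 67NR arrays by its brightest probe set, the widest range of the 3 groups, and differed from normal by -0.18 (interval -0.483 to 0.127, limma adjusted p = 0.758). Its next 3 probe sets differed by -0.02 to 0.129. Fcgr1 read 212, 204, 224, 187 and 247 and differed by -0.01 (interval -0.165 to 0.135, limma adjusted p = 0.969). Lyz2 read 11017, 12190, 10601, 10415 and 11449 and differed by -0.06 (interval -0.192 to 0.0703, limma adjusted p = 0.82). For these genes the 67NR and normal arrays overlapped.

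No monocyte receptor passed in 67NR lungs. Ccr2 read 887, 734, 526, 662 and 674 on the 67NR arrays and differed from normal by 0.343 (interval -0.251 to 0.937, limma adjusted p = 0.762). Cx3cr1 read 345, 272, 249, 246 and 221, and differed by 0.279 (interval -0.105 to 0.662, limma adjusted p = 0.684). The first 67NR array had the highest Ccr2 and Cx3cr1 intensity of its group. Csf1r read 3679, 3457, 3252, 3307 and 3174 and differed by 0.05 (interval -0.0654 to 0.162, limma adjusted p = 0.837), while its other 2 probe sets differed by -0.05 and -0.00095.

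With limma 0 of the 9 genes were called in this comparison and 0 had an unadjusted p under 0.05. Over all genes 0% were called higher, 0% lower, and 9.13% had an unadjusted p under 0.05. In 0 of the 9 were the 67NR arrays all above the normal arrays, against 0.852% of all genes. The median change of the 9 was 0.0481, and that of all genes was -0.001. None of the 20 probe sets was called either, and none had an unadjusted p under 0.05, where 0.00222% of all probe sets were called higher and 6.23% had such a p.

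The third comparison set the metastatic against the non-metastatic tumour. Fcgr3 was brighter on all 4 4T1 arrays than on all 5 67NR arrays, and Fcgr4 and Fcer1g were so on 3 of 4, the exception being the second 4T1 array. The 4T1 minus 67NR difference was 0.372 for Fcgr4 (1.29-fold, SE 0.082, interval 0.196 to 0.547, limma adjusted p = 0.0544), just outside the threshold. It was 0.264 for Fcgr3 (1.2-fold, interval 0.106 to 0.423, limma adjusted p = 0.129). It was 0.573 for Fcer1g (1.49-fold, interval 0.23 to 0.915, limma adjusted p = 0.128).

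Cx3cr1 differed the other way, and 3 of 4 4T1 arrays were below all 67NR arrays. The mean was 191 ± 34.8 in 4T1 lungs (SD, n = 4) and 266 ± 47.3 in 67NR lungs (SD, n = 5), a difference of -0.446 (SE 0.19, interval -0.853 to -0.0388) outside the threshold (limma adjusted p = 0.353). The second Cx3cr1 probe set, dim at 17.5 to 42.2 on the 4T1 arrays and 39.3 to 72.1 on the 67NR arrays, differed by -0.626 (adjusted p over all probe sets 0.52). Ccr2 differed by 0.0025 (interval -0.627 to 0.632, limma adjusted p = 1), an interval too wide to place it. Fcgr2b differed by 0.2 (interval -0.124 to 0.524) on its brightest probe set, Csf1r by 0.07 (interval -0.0465 to 0.194), Fcgr1 by -0.04 (interval -0.195 to 0.124) and Lyz2 by -0.04 (interval -0.18 to 0.0978), with limma adjusted p-values of 0.644 to 0.897. The next 3 Fcgr2b probe sets differed by 0.07 to 0.306.

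With limma 0 of the 9 genes were called in this comparison, where 0.559% of all genes were called higher and 0.202% lower. An unadjusted p under 0.05 was reached by 4 of the 9, against 12.4% of all genes, and 1 of the 9 had 4T1 arrays that were all above the 67NR arrays, against 2.35%. The median change of the 9 was 0.0739, and that of all genes was -0.00079. None of the 20 probe sets was called, where 0.133% of all probe sets were called higher and 0.0377% lower, and 6 of the 20 had an unadjusted p under 0.05, against 8.02%. These 6 were the probe sets of Fcgr3, Fcgr4 and Fcer1g, both of Cx3cr1, and that of Fcgr2b whose name ends in _s_at. This comparison shares its 4T1 arrays with the first and its 67NR arrays with the second.

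**Figure D3:**
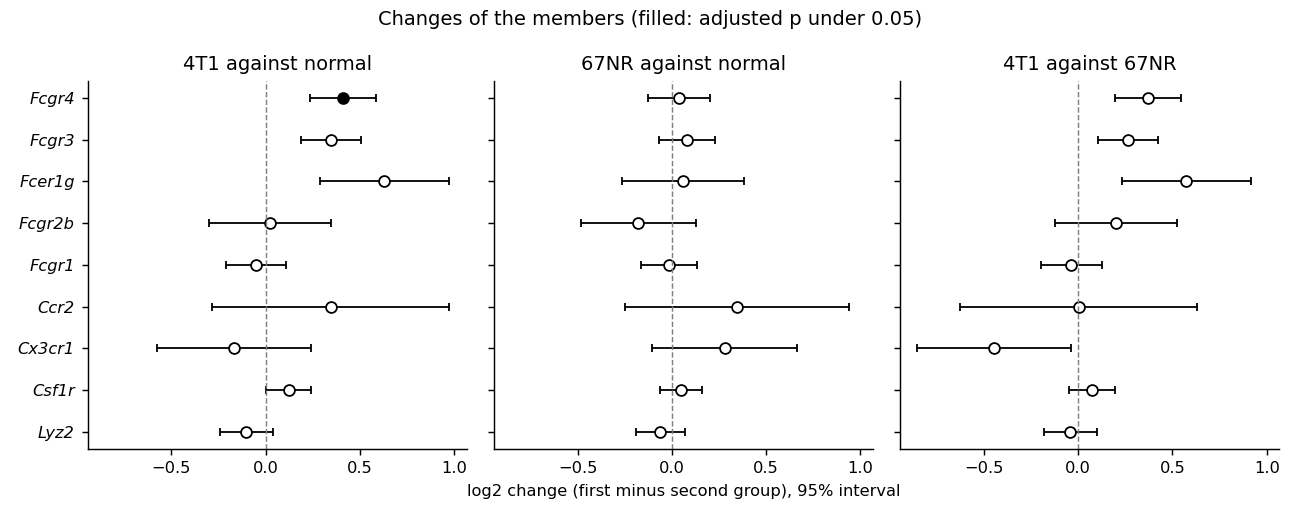
Log2 change of the 9 genes in the 3 comparisons (x axis, difference of log2(intensity + 16), first minus second group), with 95% intervals from limma and a filled point where the adjusted p was under 0.05. The filled point is Fcgr4 in 4T1 against normal at 0.41, and the intervals of Ccr2 and Cx3cr1 are the widest.

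Neutrophil markers were higher in the 4T1 group, in which Fcgr4, Fcgr3 and Fcer1g were also brighter than in normal lungs. Of 21 neutrophil markers 12 were tested, 5 were below the filter on level and 4 had no probe set of their own. In 4T1 lungs against normal lungs all 12 had positive differences, and the median change was 1.6. Of the 12, 8 were called higher with limma, against 0.412% of all genes. Among them were the collagenase gene Mmp8 (1.36, limma adjusted p = 3.48e-06), the calprotectin subunit S100a9 (2.48, limma adjusted p = 5.01e-06), the chemokine receptor Cxcr2 (2.41, limma adjusted p = 5.01e-06) and the protease inhibitor Stfa2l1 (3.85, limma adjusted p = 5.35e-06). Mmp8 and Stfa2l1 passed the filter on level only through their 4T1 arrays. Their mean log2 levels were 7.2 and 7.31 in 67NR lungs and 7.15 and 7.16 in normal lungs, below the filter at 7.35. The counts of this list include both genes and are given as a description. Relative to the mean of all 14 arrays, the mean log2 level of the list was 0.86 to 1.4 on the 4T1 arrays, -0.58 to -0.14 on the 67NR arrays and -0.74 to -0.23 on the normal arrays. The defining marker S100a8 averaged 11274 ± 1326 in 4T1 (SD, n = 4), 2633 ± 491 in 67NR (SD, n = 5) and 2219 ± 606 in normal lungs (SD, n = 5). The receptor gene Csf3r averaged 1620 ± 219, 557 ± 170 and 433 ± 108 in the same groups. In 67NR lungs 0 of the 12 were called with limma against normal and the median was 0.048. In 4T1 lungs against 67NR lungs all 12 had positive differences. Of these, 10 were called higher, against 0.559% of all genes. Neutrophils carry Fcgr4, Fcgr3 and Fcer1g, and the part of neutrophil RNA in the differences of these genes was not tested.

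Markers of the cells that carry the monocyte receptors did not pass in any comparison. Some listed markers were bright, such as Cd36, Mgst1 and Car4 at mean log2 levels of 13.09, 13.17 and 12.03 on the normal arrays. The part of other lung cells in the levels of these lists was not tested. Classical monocyte markers (8 tested of 14) had a median change of 0.21 in 4T1 and 0.15 in 67NR lungs against normal lungs, led by the endotoxin coreceptor Cd14 (0.207, limma adjusted p = 0.596) and Plac8 (0.441, limma adjusted p = 0.684) in 4T1 lungs. Their mean level ran from -0.21 to 0.37 on the 4T1 arrays, -0.088 to 0.21 on the 67NR arrays and -0.32 to 0.064 on the normal arrays. Non-classical monocyte markers (10 tested of 12) had a median of 0.036 in each of these comparisons, and in 4T1 lungs 6 of the 10 were positive and 4 negative. The integrin gene Itgal was at 0.324 there (limma adjusted p = 0.178) and the nuclear receptor gene Nr4a1 at -0.584 (limma adjusted p = 0.905). In 4T1 against 67NR lungs, where Cx3cr1 was at -0.446, 4 of the 10 non-classical markers had positive and 6 negative differences, and the median was -0.025. There Itgal was at 0.249 (limma adjusted p = 0.195) and Treml4 at -0.267 (limma adjusted p = 0.416).

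Interstitial macrophage markers (12 tested of 14) had medians of 0.027 in 4T1 and 0.041 in 67NR lungs against normal lungs, and alveolar macrophage markers (8 tested of 14) had medians of -0.042 and -0.056. Among the first, the scavenger receptor gene Stab1 was at 0.18 in 4T1 lungs (limma adjusted p = 0.628) and the complement gene C1qc at 0.209 in 67NR lungs (limma adjusted p = 0.3). Among the second, the carbonic anhydrase gene Car4 was at 0.136 in 4T1 lungs (limma adjusted p = 0.742). No gene of either list was called with limma in any of the 3 comparisons. Lists for dendritic, natural killer, B, mast and basophil, and alveolar type 2 cells likewise held no called gene, with medians between -0.11 and 0.17.

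**Figure D4:**
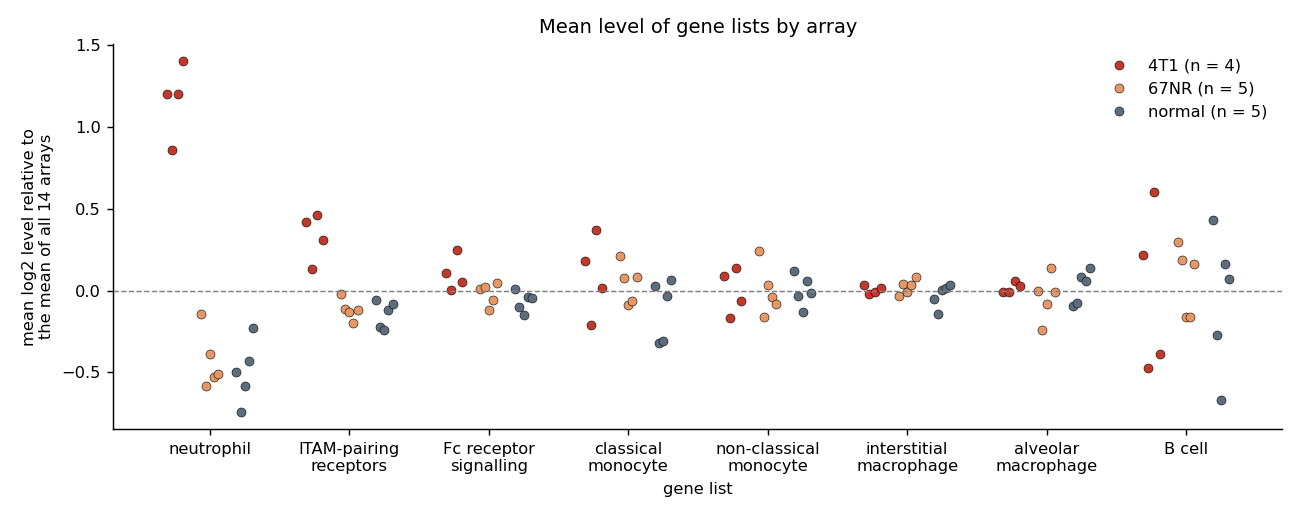
Mean log2 level of gene lists on each array relative to the mean of the 14 arrays (y axis), by lung group, with 1 point per array (4 4T1, 5 67NR and 5 normal arrays). Neutrophil markers lie between 0.86 and 1.4 on the 4T1 arrays and below 0 on all others, while the monocyte and macrophage lists overlap between groups.

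Other genes of the Fc receptor pathway were counted in lists. Of 26 signalling genes 21 were tested, and 0 were called with limma in any comparison. In 4T1 lungs against normal lungs 17 of the 21 had positive differences and the median was 0.12. The Src family kinase gene Fgr was at 0.579 (limma adjusted p = 0.0575) and the small GTPase gene Rac2 at 0.6 (limma adjusted p = 0.178). Against 67NR lungs the 4T1 median was also 0.12, with 16 of the 21 positive and 5 negative, and Fgr was at 0.515 (limma adjusted p = 0.0671). The related kinase gene Src, named after its values were seen, was at -0.243 (limma adjusted p = 0.194), with all 4T1 arrays below all 67NR arrays. In 67NR lungs against normal lungs the median was 0.057, and the phosphatase gene Ptpn11 was at 0.0925 (limma adjusted p = 0.511). The mean level of this list ran from 0.0065 to 0.25 on the 4T1 arrays, -0.12 to 0.045 on the 67NR arrays and -0.15 to 0.0092 on the normal arrays.

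A list built around other receptors that pair with ITAM adaptors held 15 genes, adaptor genes among them, and 11 were tested. In 4T1 lungs against normal lungs 10 of the 11 had positive differences, with a median of 0.42, and 1 was called. Sirpb1a, named for this reason alone, passed the filter on level only through its 4T1 arrays. Its mean log2 level was 7.88 in 4T1, 7.34 in 67NR and 7.32 in normal lungs. Clec4d, a C-type lectin of myeloid cells that recognises mycobacterial glycolipid, rose by 1.68 (3.21-fold, SE 0.0957, limma adjusted p = 3.09e-07). It was also called in 4T1 against 67NR lungs (1.34, 2.53-fold, limma adjusted p = 3.19e-06), and it was at 0.34 in 67NR against normal lungs (limma adjusted p = 0.3). The mean level of this list ran from 0.13 to 0.46 on the 4T1 arrays, -0.2 to -0.018 on the 67NR arrays and -0.24 to -0.056 on the normal arrays.

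Fc receptors of other kinds were tested for 4 of 11 genes, with 0 called in any comparison. Pigr, the epithelial transporter of IgA, was at -0.103 in 4T1 and 0.262 in 67NR lungs against normal lungs (limma adjusted p = 0.975 and 0.65), and the cytosolic antibody receptor gene Trim21 was at -0.137 in 4T1 lungs (limma adjusted p = 0.775). Of the 7 ligands of the monocyte receptors 3 were tested and 4 (Ccl2, Ccl7, Ccl12 and Il34) were below the filter on level. The Ccr2 ligand Ccl8 was at 0.262 in 4T1 lungs (limma adjusted p = 0.633) and the Cx3cr1 ligand Cx3cl1 at -0.157 (limma adjusted p = 0.815). Of 12 transcription factors of monocytes and macrophages 10 were tested and 0 called. Spi1, which encodes PU.1, was at 0.375 in 4T1 lungs against normal lungs (limma adjusted p = 0.156) and at 0.355 against 67NR lungs (limma adjusted p = 0.0925). In 67NR lungs against normal lungs Klf4 was at -0.301 (limma adjusted p = 0.468).

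The genes whose level was most like that of each of the 9 over the 14 arrays are given as a description, since the arrays share their groups. Fcgr4 was closest to the Schlafen gene Slfn1 (Pearson r = 0.943), to Pilra (r = 0.931) and to Selplg (r = 0.922), the selectin ligand of leukocytes. Fcer1g was closest to Selplg (r = 0.939), to the leukocyte adaptor Fyb (r = 0.928) and to Lrg1 (r = 0.918). Fcgr3 was closest to Mxd1 (r = 0.894), to Pglyrp1 (r = 0.882), a bactericidal protein of neutrophil granules, and to Rnf149 (r = 0.862). Of these genes Pglyrp1 rose by 1.08 in 4T1 lungs against normal lungs (limma adjusted p = 0.000194), Mxd1 by 0.702 (limma adjusted p = 0.000269) and Selplg by 0.74 (limma adjusted p = 0.00715). They were picked because they followed genes that were brighter on the 4T1 arrays, so their rise is no separate result. The changes of Slfn1, Pilra, Fyb, Lrg1 and Rnf149 are not given here.

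Ccr2 was closest to Ms4a1 (r = 0.949), which encodes the B cell protein CD20. Next came Ms4a4c (r = 0.941), a gene of the classical monocyte list, and H2-DMb2 (r = 0.938), which serves antigen presentation. Ms4a1 read 866, 419, 1231 and 518 on the 4T1 arrays, 885, 849, 603, 614 and 786 on the 67NR arrays, and 926, 495, 387, 741 and 724 on the normal arrays. Ms4a4c read 575, 274, 579 and 438 on the 4T1 arrays and 487, 287, 229, 440 and 423 on the normal arrays. On the 67NR arrays it read 546, 490, 356, 425 and 512. Ccr2, Ms4a1 and Ms4a4c were highest on the third 4T1 array and low on the second 4T1 array and on normal arrays 2 and 3. B cell markers, 8 tested of 10, ran from -0.47 to 0.6 on the 4T1 arrays and -0.16 to 0.3 on the 67NR arrays. On the normal arrays they ran from -0.67 to 0.43. Classical monocyte markers ran from -0.21 to 0.37, -0.088 to 0.21 and -0.32 to 0.064 in the same order of groups. The part of either list in the Ccr2 values was not tested.

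Cx3cr1 was closest to Sema6d (r = 0.965), Loxl1 (r = 0.935) and Ptp4a2 (r = 0.923). Csf1r was closest to Cep192 (r = 0.906), Galnt4 (r = 0.883) and Capza1 (r = 0.871). Lyz2 was closest to Selenop (r = 0.961), Tpt1 (r = 0.95) and the second lysozyme gene Lyz1 (r = 0.933), whose sequence is so alike that signal may be shared. The brightest Fcgr2b probe set was closest to Cplx2 (r = 0.962), the growth factor receptor gene Egfr (r = 0.941) and the basement membrane gene Hspg2 (r = 0.933), none of which is a leukocyte marker. Fcgr1 had the loosest neighbours, led by Tulp3 (r = 0.779).

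Among the 9 genes themselves, array deviations from the group means showed which genes varied together inside groups. Ccr2, Cx3cr1 and Csf1r did so (14 arrays). The r was 0.809 for Ccr2 with Cx3cr1, 0.835 for Cx3cr1 with Csf1r and 0.748 for Ccr2 with Csf1r. Each gene was read by its brightest probe set. For Csf1r that probe set correlated with the other Csf1r probe sets at only r = 0.377 and 0.171 over the 14 arrays. Fcgr4 varied with Fcer1g at r = 0.682, but Fcgr3 varied little with Fcgr4 (r = 0.146) or with Fcer1g (r = 0.249). Fcgr2b varied with Lyz2 at r = 0.756. The second 4T1 array was the lowest of its group for 5 of the 9 genes and the third the highest for 6.

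The balance of Ccr2 and Cx3cr1 within an array is given relative to its mean on normal arrays, as the log2 level of Ccr2 minus that of Cx3cr1. It was 0.72, -0.15, 0.99 and 0.49 on the 4T1 arrays, with a mean of 0.51 ± 0.49 (SD, n = 4). It averaged 0.07 ± 0.18 on the 67NR arrays (SD, n = 5) and 0 ± 0.19 on the normal arrays (SD, n = 5). Thus 3 of 4 4T1 arrays had a higher balance than every 67NR and normal array, and the second had not. Only the brightest probe set of each gene was used. For Ccr2 it differed by 0.345 in 4T1 against normal lungs, where the other 3 differed by 0.04 to 0.236. One of those 3 had its lowest intensity of all arrays, 72.4, on the fourth 4T1 array, so the arrays that stand out depend on the probe set read. No test was run on this balance. The balance of Fcgr4 over the inhibitory Fcgr2b, taken the same way with its brightest probe set, averaged 0.39 ± 0.22 in 4T1 (SD, n = 4), 0.22 ± 0.32 in 67NR (SD, n = 5) and 0 ± 0.14 in normal lungs (SD, n = 5), and the 67NR arrays spanned the 4T1 mean. Only that Fcgr2b probe set was used. It differed by 0.02 in 4T1 against normal lungs, where the next 3 differed by 0.2 to 0.287.

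**Figure D5:**
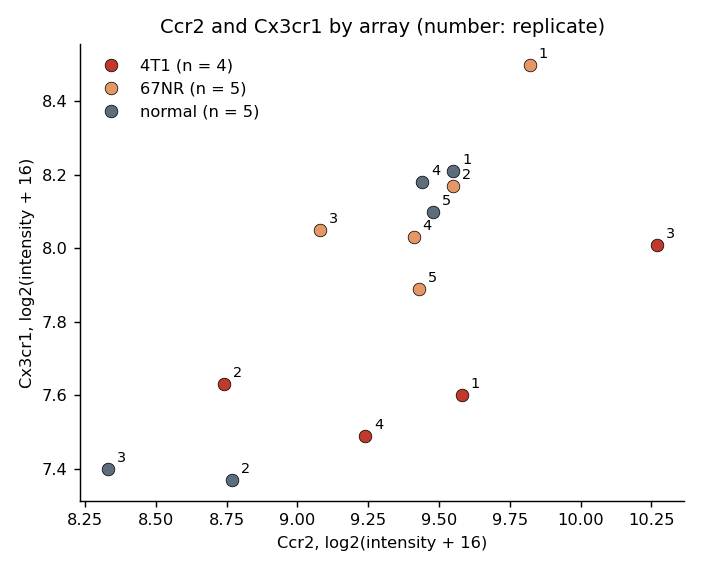
Cx3cr1 against Ccr2 on each array, both as log2(intensity + 16) of the brightest probe set, coloured by lung group and numbered by replicate (4 4T1, 5 67NR and 5 normal arrays). Arrays 1, 3 and 4 of the 4T1 group lie to the right of or below the trend of the other arrays, at a balance of 0.72, 0.99 and 0.49.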

How the data were processed

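Lung RNA of 14 samples was hybridised to Affymetrix mouse arrays, 1 array per sample. Per the labels' protocols, labelled cRNA was made by in vitro transcription from 3 µg of total RNA. The deposited table holds linear probe set intensities made by the authors. The summary, background and normalisation steps behind these values are not given in the sources used here. Detection calls played no part. Array medians ranged from 113.2 to 116.1.

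Probe sets were named by the 2016 platform annotation. Of 45101 probe sets, 34958 had 1 gene symbol, 932 several and 9211 none, and 34754 matched a RefSeq gene by Entrez identifier. Titles and the injected cell line gave the groups. Intensities became log2(intensity + 16), which understates changes of dim genes. The fit (limma 3.58.1, R 4.3.3) used lmFit with a mean for each group, all 14 arrays and 11 residual degrees of freedom, followed by eBayes with its defaults. P-values are two-sided with Benjamini-Hochberg adjustment, and an adjusted p under 0.05 counted as called. At gene level the brightest probe set stood for a gene and the upper 60% of genes by mean level was tested (10916 genes, mean log2 level above 7.35). At probe set level all 45037 probe sets other than the 64 controls were tested. The scripts were tested on simulated data.

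The 9 genes and the gene lists (190 other genes) were chosen with earlier results of these data known. Named were all members, up to 4 called genes of each list (or the 1 or 2 with the smallest p), the 3 genes most correlated with each member, and the neutrophil markers S100a8 and Csf3r. Alternatives were other offsets, filters, probe set rules and normalisations, array weights, fewer groups or arrays, and a replicate block. Promoters are RefSeq's on GRCm38.p6, and only those of Fcgr4, Fcgr3, Fcer1g and Fcgr2b were searched. Those of Fcgr1, Ccr2, Cx3cr1, Csf1r and Lyz2 were not analysed here.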

Additional observations from a re-analysis of the deposited data

Results flagged for a closer look

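Of 60 pairs of a probe set and a group, 3 held an array that stood far from the rest of its group, by the ratio of its gap to the nearest array over the whole range of the group (Dixon test at the 95% level). Chance alone marks about 1 in 20 such groups. The second brightest Fcgr2b probe set read 617 on the third 4T1 array, where the other 4T1 arrays read 426 to 437 (ratio 0.927). Fcgr3 read 501 on the second normal array, where the other normal arrays read 581 to 601 (ratio 0.814), so this array widens the gap between the 4T1 and the normal group. One of the dimmer Ccr2 probe sets read 72 on the third normal array, where the others read 122 to 145 (ratio 0.747), and the brightest Ccr2 probe set was also lowest there, at 306.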

How the results depend on the processing

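Each result was computed again with other offsets, filters, probe set rules, normalisations, array weights, fewer groups and each array left out. The count of the 9 genes called in 4T1 against normal lungs, 1 in the report, was 0 without a filter, 0 in the upper 40% of genes (where Fcgr4 was not tested), 2 with array weights (Fcgr3 and Fcgr4), 0 with only the groups compared, 0 without 67NR arrays 1 and 3 and 0 to 2 with 1 array left out. For 4T1 against 67NR lungs the count of 0 became 1 with array weights (Fcgr4) and 0 to 2 with 1 array left out, and the count of probe sets in 4T1 against normal lungs was 0 to 1. It was 0 in 67NR against normal lungs throughout. Without the second 4T1 array, Fcgr4 and Fcer1g passed in 4T1 against normal lungs (limma adjusted p = 0.00526 and 0.0243) and against 67NR lungs (0.0113 and 0.0377); over the alternatives the adjusted p of Fcgr4 against normal ranged from 0.00526 to 0.18.

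Over all genes, calls ranged from 26 to 67 in 4T1 against normal lungs (45 in the report), 0 to 11 in 67NR against normal lungs (0) and 41 to 184 in 4T1 against 67NR lungs (83). Signs turned only for differences that were not called. With 1 array left out, the 4T1 minus 67NR difference was -0.267 to 0.241 for Ccr2, -0.0801 to 0.0133 for Fcgr1 and -0.0666 to 0.0025 for Lyz2, the 67NR minus normal difference was -0.0497 to 0.133 for Fcer1g, -0.0637 to 0.0297 for Fcgr1 and -0.000582 to 0.0627 for Fcgr4, and the 4T1 minus normal difference was -0.0438 to 0.086 for Fcgr2b. Ccr2 in 4T1 against 67NR was -0.102 with array weights and -0.00195 without 67NR arrays 1 and 3, which also gave -0.07 for Fcer1g in 67NR against normal lungs. With probe sets averaged per gene, Fcgr1 was 0.0336 in 4T1 against 67NR and 0.00515 in 4T1 against normal lungs, and Fcgr2b was 0.00589 in 67NR against normal lungs. The cause was not tested.

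Arrays with the same replicate number were not seen to be alike in their deviations over all genes tested. Over 13 such pairs, deviations correlated at -0.34 to 0.219, and 1 pair matched best by number. The labels do not say what a number shares, and a shared effect on some genes alone could not be seen this way. With the replicate number as a block 1 gene was again called in 4T1 against normal lungs, but it was Fcgr3 (0.361, limma adjusted p = 0.0193), with Fcgr4 at an adjusted p of 0.113; Fcgr1 in 4T1 against 67NR was 0.00447 under the block.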
